A study of Mus musculus with 55 samples.

Results

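KO diestrus mice were set against KO proestrus mice, 6 against 4, out of 55 mice in 10 groups whose dorsal hippocampus was sequenced, with 1 library per mouse. The members were taken by label, as genotype KO with stage diestrus (mice 532, 643, 644, 645, 2592 and 7_1) or stage proestrus (mice 12_4, 12_5, 14_1 and 14_2). All 10 were adult females homozygous for a Cnih3 allele that lacks an exon and ends in a frameshift, on a C57BL/6J background. Stage was read from vaginal cytology. Of the diestrus mice, 4 had 3-digit numbers (532, 643, 644 and 645) and 2 did not (2592 and 7_1). These kinds of mice are shown apart where values are given by mouse or by kind. Other values for diestrus are over all 6 mice. The 3-digit mice were 10.86 to 13.86 weeks old, mice 2592 and 7_1 were 16.29 and 23.43 weeks old, and the proestrus mice were 13 to 14.57 weeks old. All 7 mice of the series with 3-digit numbers, 4 KO and 3 WT, were in diestrus, and the labels do not say what the number stands for. When the 3-digit mice are compared with proestrus mice, number series and stage therefore cannot be told apart.

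Diestrus is the long phase of the rodent cycle in which progesterone from the corpora lutea prevails, and proestrus is the day on which estradiol, then luteinizing hormone and progesterone, surge before ovulation. Dendritic spines and synaptic receptors of hippocampal pyramidal neurons are known to vary over this cycle. CNIH3 is an auxiliary subunit of AMPA receptors, which it helps to leave the endoplasmic reticulum and slows in closing. The dorsal hippocampus holds glutamatergic pyramidal and granule neurons, GABAergic interneurons, astrocytes, microglia and the oligodendrocyte lineage that wraps axons in myelin.

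KO diestrus differed from KO proestrus in 5550 genes, and the 3-digit diestrus mice differed from the other diestrus mice in 1233. Transcripts of myelin and its oligodendrocytes, of endoplasmic reticulum chaperones, of nuclear long non-coding RNAs and of several ion channel families were lower in diestrus. Transcripts of the kinesin Kif5a, of the kinase subunit Camk2a, of 4 of 10 astrocyte markers and of 12 proteasome subunits were higher. For the gene lists named here, the median change of mice 2592 and 7_1, also labelled diestrus, lay nearer to proestrus than that of the 3-digit mice. As log2 fold changes against proestrus, their medians were -0.34 for mature oligodendrocyte and -0.15 for chaperone genes. They were 0.02 for nuclear RNAs, 0.01 for potassium channels, -0.0009 for AMPA, -0.10 for NMDA and 0.10 for GABA-A receptors. For some genes, such as Camk2a and Cldn11, both mice were outside the proestrus range. Set against proestrus on their own, they gave no differentially expressed gene (DEG) by the main test.

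Of 16168 genes tested, 5550 were DEGs between the 6 diestrus and 4 proestrus mice at a false discovery rate (FDR) of 0.05, or 34.3% of all genes. Of these, 2407 were higher in diestrus (14.9%) and 3143 lower (19.4%). Changes were mostly small, with a median absolute log2 fold change of 0.48 among DEGs, and 572 DEGs exceeded 1 on the log2 scale, 43 of them higher and 529 lower. Groups that did not overlap at all were fewer: all 6 diestrus mice lay above all 4 proestrus mice for 686 genes (4.24%) and below them for 426 (2.63%). The test was limma with voom and a quality weight per library, in which 2592 and 7_1 carried weights of 0.509 and 0.433 and the 3-digit mice 1.61 to 1.74. Fold changes over all 6 mice therefore lie near those of the 3-digit mice. With equal weights the count fell to 1627, and edgeR and DESeq2, which use no weights, called 1353 and 1848 genes. The share of DEGs that were higher in diestrus was 43.4% by limma, 52.5% by edgeR and 56.0% by DESeq2.

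The 3-digit diestrus mice against proestrus, 4 against 4, gave 6248 DEGs (38.6%), of which 2720 were higher (16.8%) and 3528 lower (21.8%). They shared 5455 DEGs, all in the same direction, with the comparison of all 6 mice, which is 98.3% of that list and 87.3% of theirs. These comparisons have 8 mice in common, so the overlap is a description. All 4 of the 3-digit mice lay above all 4 proestrus mice for 2074 genes (12.8%) and below them for 2514 (15.5%). Mice 2592 and 7_1 against proestrus gave 0 DEGs by limma, with 1067 genes at an unadjusted p under 0.05. For the same comparison edgeR called 0 (907 at an unadjusted p under 0.05) and DESeq2 1 (969). With 2 mice that differ in age, this does not show that they match proestrus, and without 7_1 the remaining mouse gave 36 DEGs, a fit in which 2592 was assumed to vary like the mice of the other groups.

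Set against each other, the 3-digit mice and the other diestrus mice differed in 1233 genes (7.63%), 194 higher in the 3-digit mice (1.2%) and 1039 lower (6.43%). The count of 1233 fell to 719 without 7_1 and to 775 without 532, and it was 497 with equal weights. With age as a covariate it was 1218, and the share higher in the 3-digit mice was 26.4% in place of 15.7%. Leaving out 12_4 or 12_5, both in proestrus, took the count of diestrus against proestrus to 3225 and 3627, whereas leaving out 7_1 raised it to 5952. In the plot of DEGs with each mouse left out, the direction of the split was the same each time, with more genes lower than higher in diestrus. These fits all kept the quality weights. Without such weights, edgeR and DESeq2 had more genes higher than lower (52.5% and 56% higher).

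**Figure D1:**
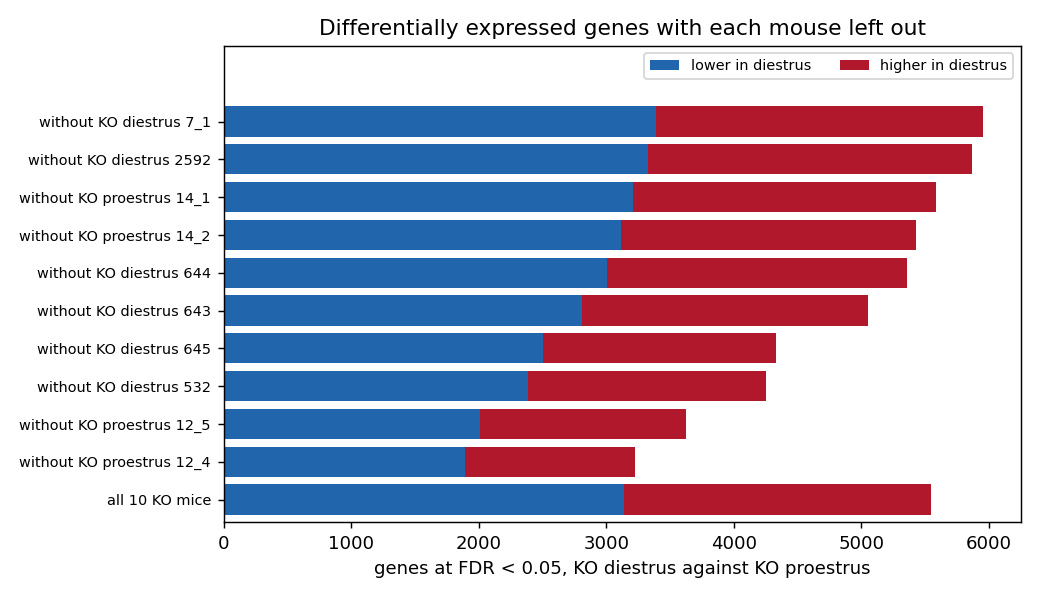
Number of genes at FDR under 0.05 (x axis) between KO diestrus and KO proestrus with all 10 mice and after dropping 1 mouse at a time (y axis), blue for lower and red for higher in diestrus. The count runs from 3225 without proestrus mouse 12_4 to 5952 without diestrus mouse 7_1, against 5550 with all mice.

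The libraries held 32817017 to 57963784 counts. Over all tested genes, any pair of the 3-digit mice differed by a root mean square of 0.41 to 0.45 on the log2 scale, less than any pair of a 3-digit mouse with 2592 or 7_1 (0.584 to 0.643) or with a proestrus mouse (0.583 to 0.716). Pairs of 2592 or 7_1 with a proestrus mouse (0.384 to 0.634) lay near those within proestrus (0.381 to 0.569). The first principal component of these 10 mice held 38.1% of the variance, with the 3-digit mice at 31.1 to 38.4, 2592 and 7_1 at -13.1 and -24, and proestrus at -29.3 to -21.1. Mitochondrial transcripts took 3.12% ± 0.475 (SD, n = 6) of counts in diestrus and 4.31% ± 0.906 (SD, n = 4) in proestrus, with p = 0.0333 by a two-sided exact permutation test and 0.133 after adjustment over 4 library measures. Total counts, genes detected and the share of the 50 most abundant genes gave exact p of 0.229 to 0.724 in the same test. The kinds of diestrus mice did not overlap in genes detected. These were about 27080 to 27710 in the 3-digit mice and 28510 to 28940 in 2592 and 7_1. Proestrus mice had 26630 to 28850, and no test was run between the kinds of diestrus mice. Cnih3 lay at 21.6 to 32.4 CPM (counts scaled to a common library size) in KO diestrus and 28 to 47.8 in KO proestrus, and at 21.6 to 62.5 in the WT groups. These gene counts include the exons that remain and so do not check the deletion.

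The genes with the smallest p that were lower in diestrus were led by Cldn11, the claudin of the tight junctions between myelin layers. Cldn11 was at 89.3, 79.3, 81.4 and 99.8 CPM in the 3-digit mice 532, 643, 644 and 645, at 120.2 and 171 in 2592 and 7_1, and at 248, 201, 240.1 and 190.5 in proestrus mice 12_4, 12_5, 14_1 and 14_2 (log2 fold change -1.25, SE 0.15, FDR 3.26e-07). All 6 diestrus mice were below all proestrus mice, and the 3-digit mice were the lowest. Mag, the myelin-associated glycoprotein that faces the axon, was at 48.2, 37.2, 41.1 and 58.3 CPM in the 3-digit mice, 69.97 and 125 in 2592 and 7_1, and 162, 144, 189.9 and 119 in proestrus (log2 fold change -1.63, SE 0.21, FDR 5.36e-07). Here mouse 7_1 fell inside the proestrus range and the other 5 diestrus mice were below it.

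Lgi3, a secreted leucine-rich protein related to the epilepsy gene product LGI1, had 33.2, 35.8, 35.1 and 36.1 CPM in the 3-digit mice, 52.4 and 65.8 in 2592 and 7_1, and 74.2, 70.6, 74.9 and 66.03 in proestrus (log2 fold change -0.95, SE 0.12, FDR 5.36e-07). The 3-digit values lay close together, and 7_1 was just under the lowest proestrus mouse. Ddr1, a collagen receptor tyrosine kinase, was at 12.8, 13.52, 11.9 and 15.9 CPM, then 15.8 and 32.3 in 2592 and 7_1, and 40.5, 36.8, 36.01 and 29.6 in proestrus (log2 fold change -1.37, SE 0.17, FDR 4.12e-07). For Ddr1, 2592 was with the 3-digit mice and 7_1 with the proestrus mice. The other genes of this rank were Tmem205 (-0.69), the choline transporter Slc44a1 (-1.09), the glucosidase II subunit Prkcsh (-0.95) and the tetraspanin partner Igsf8 (-1.24), given as log2 fold changes with FDRs of 5.36e-07 to 7.16e-07. All 4 were lower in every 3-digit mouse than in any proestrus mouse.

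Among genes higher in diestrus the smallest p was that of Camk2a, the alpha subunit of the calcium- and calmodulin-dependent kinase II that underlies long-term potentiation. Camk2a was at 2956, 2624, 2527 and 2768 CPM in the 3-digit mice, at 2023 and 1615 in 2592 and 7_1, and at 1539, 1499, 1267 and 1557 in proestrus (log2 fold change 0.81, SE 0.10, FDR 4.22e-07). All 6 diestrus mice were above all 4 proestrus mice, 7_1 by the smallest margin. Kif5a, a neuronal kinesin heavy chain that carries cargo down axons, was at 759.9, 688, 833 and 714 CPM in the 3-digit mice, 359 and 438 in 2592 and 7_1, and 382, 339, 299 and 314 in proestrus (log2 fold change 1.01, SE 0.13, FDR 5.36e-07). The 3-digit mice stood well above the rest, and 2592 was inside the proestrus range.

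Phactr1, a regulator of actin and protein phosphatase 1, was at 634, 613, 636 and 599.6 CPM in the 3-digit mice, 499 and 440.4 in 2592 and 7_1, and 413, 424, 391 and 387 in proestrus (log2 fold change 0.55, SE 0.07, FDR 4.57e-07). Cdk14, a cyclin-dependent kinase of Wnt signaling, was at 366, 355, 349 and 369 CPM, then 298 and 332, and 262, 266, 255 and 276 in proestrus (log2 fold change 0.42, SE 0.06, FDR 1.18e-06). In both genes the groups did not overlap and 2592 and 7_1 lay in between. The rest were the G protein subunit Gng7 (0.73), the glutaminyl-tRNA synthetase Qars (0.57), the diacylglycerol kinase Dgkb (0.56) and the elongation factor Eef2 (0.51), with FDRs of 1.46e-06 to 2.35e-06. For Dgkb, at 267, 235, 252 and 284 CPM in the 3-digit mice, 231 and 247 in 2592 and 7_1, and 173, 178, 164 and 179.7 in proestrus, mouse 7_1 lay within the 3-digit range and 2592 just under it.

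**Figure D2:**
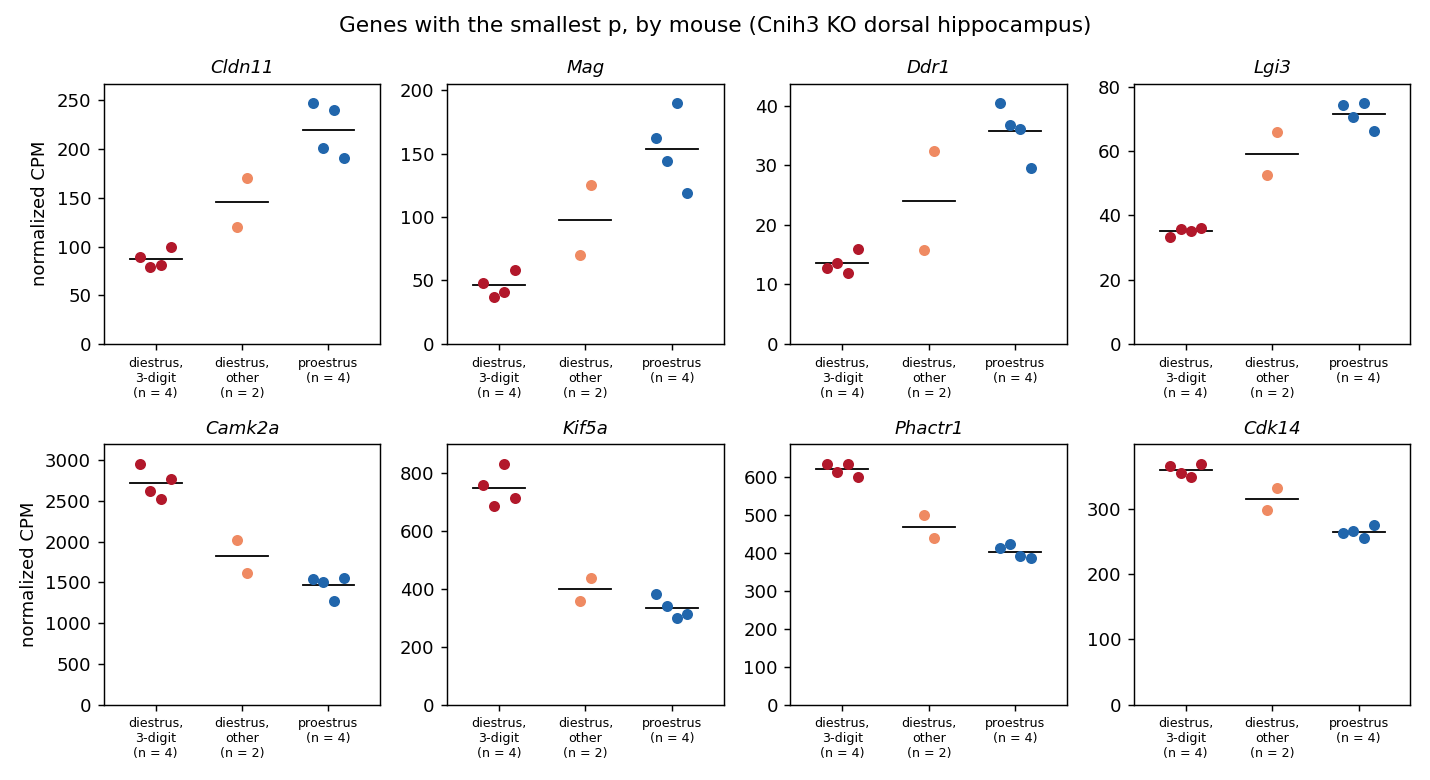
Normalized CPM (y axis, from 0) of 8 of the genes with the smallest p, with 1 point per mouse and a bar at the mean, for 3-digit KO diestrus mice (n = 4), the other KO diestrus mice (n = 2) and KO proestrus mice (n = 4). In all 8 genes the 3-digit mice do not overlap the proestrus mice, and Mag in 7_1, Ddr1 in 7_1 and Kif5a in 2592 fall in the proestrus range.

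Of 16 markers of mature oligodendrocytes, the cells that make myelin, 13 were lower in diestrus and 0 higher, with a median log2 fold change of -0.95, where 19.4% of all genes were lower. The 3-digit mice alone had 12 lower and a median of -1.05. In 2592 and 7_1 none was called and the median was -0.34, and 7 markers were lower in the 3-digit mice than in these mice. Fa2h, which makes the hydroxylated fatty acids of myelin lipids, was at 10.9, 8.79, 7.30 and 8.34 CPM in the 3-digit mice, 15.3 and 20.7 in 2592 and 7_1, and 26.2, 23.7, 24.3 and 23.6 in proestrus (log2 fold change -1.36, SE 0.18, FDR 8.30e-07). Mog, a surface protein of the outer myelin layer, was at 53.6, 51.7, 54.9 and 60.6 CPM, then 87.6 and 103 in 2592 and 7_1, and 121, 115, 158 and 97.2 in proestrus (log2 fold change -1.04, SE 0.16, FDR 4.70e-06). Fa2h separated the stages fully, while Mog in 7_1 exceeded its lowest proestrus value. Gal3st1, which sulfates the myelin lipid sulfatide and is named in the study's text, fell too (log2 fold change -1.004, FDR 4.42e-05). In bulk tissue, fewer oligodendrocytes and less RNA per oligodendrocyte cannot be told apart.

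Of 10 markers of oligodendrocyte precursors and newly forming oligodendrocytes, 7 were lower and 0 higher, where 19.4% of all genes were lower. Their median log2 fold change was -0.54. Enpp6, a choline phosphodiesterase of newly forming oligodendrocytes, was at 3.83, 2.87, 4.55 and 4.91 CPM in the 3-digit mice, 5.63 and 7.13 in 2592 and 7_1, and 10.4, 9.98, 10.54 and 7.21 in proestrus (log2 fold change -1.24, SE 0.22, FDR 3.37e-05). Its groups did not overlap, with 7_1 just below the lowest proestrus mouse. The proteoglycans Cspg4 (-0.80, FDR 0.000869) and Vcan (-0.74, FDR 0.00358) and the secreted C1ql1 (-0.9967, FDR 0.0127) fell as well, and 2592 and 7_1 differed from proestrus by -0.08, -0.09 and -0.59 on the log2 scale, none of them called.

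**Figure D3:**
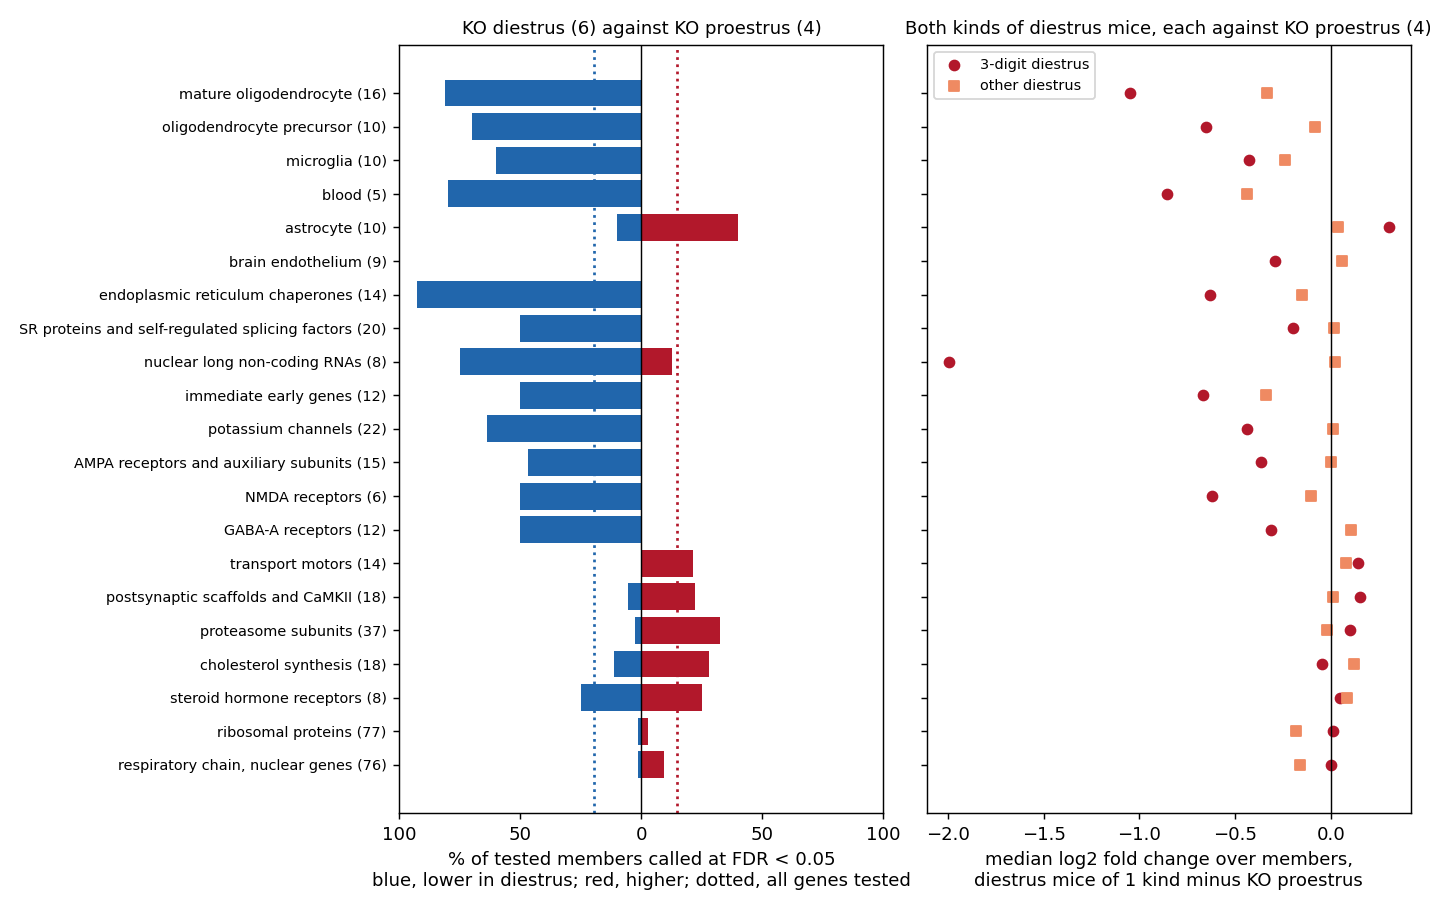
Left, percent of the tested members of each gene list (number in brackets) that were lower (blue, drawn to the left) or higher (red, to the right) in KO diestrus than in KO proestrus at FDR under 0.05, with dotted lines at the 19.4% and 14.9% of all genes. Right, median log2 fold change against KO proestrus over the members, for the 3-digit diestrus mice (circles) and for 2592 and 7_1 (squares). The squares lie nearer to 0 than the circles for the mature oligodendrocyte, chaperone and nuclear RNA lists.

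Other cell types moved unevenly, where 14.9% of all genes were higher and 19.4% lower. Of 10 astrocyte markers, 4 were higher, 1 was lower and 5 were not called. Aldh1l1, a folate enzyme used to mark astrocytes, was at 52.3, 50.1, 54.2 and 57.9 CPM in the 3-digit mice, 41.9 and 23.6 in 2592 and 7_1, and 29.5, 25.1, 23.5 and 22.7 in proestrus (log2 fold change 0.95, SE 0.14, FDR 3.86e-06). Ndrg2 (0.76), the glycolytic enzyme Aldoc (0.56) and the calcium-binding S100b (0.48) also rose, while the water channel Aqp4 fell. Of 10 microglial markers 6 were lower, with Tmem119 at 12.18, 9.94, 11.99 and 10.7 CPM in the 3-digit mice, 10.6 and 13.1 in 2592 and 7_1, and 18.9, 16.2, 21.4 and 16.8 in proestrus (log2 fold change -0.67, SE 0.14, FDR 0.000221). For Tmem119 all 6 diestrus mice were below proestrus, with 2592 inside the 3-digit range and 7_1 just above it. The complement subunit C1qa (-0.75) and the protease Ctss (-0.60) fell too.

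Of 9 brain endothelial markers none was called, with a median of -0.22, where 14.9% of all genes were higher and 19.4% lower. Of 5 blood genes, 4 were lower, and the hemoglobin chain Hba-a1 was at 47.99, 66.6, 55.3 and 42.7 CPM in the 3-digit mice, 97.2 and 49.02 in 2592 and 7_1, and 124, 76.6, 76.3 and 132 in proestrus (log2 fold change -0.81, SE 0.27, FDR 0.0154). Hba-a1 shares nearly all of its sequence with Hba-a2, so reads may be split or lost between the pair. Of 6 tested meningeal fibroblast genes, the proteoglycan Lum (-1.39, FDR 0.00201) and the collagen Col1a2 (-1.36, FDR 0.00757) fell. Of 7 thalamic markers none was called, and 1 of 12 choroid plexus markers was, Enpp2 (-1.03, FDR 0.0466). For Enpp2, proestrus mouse 12_4 stood far above all the other mice of both stages. The part of unequal tissue or blood content in the other results was not tested.

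The neurons did not move as 1 class, where 14.9% of all genes were higher and 19.4% lower. Of 6 pan-neuronal or pyramidal markers, 2 rose (Camk2a and the release protein Snap25, 0.49) and 3 fell. Among those that fell, the vesicular glutamate transporter Slc17a7 was at 173, 210.1, 201 and 171 CPM in the 3-digit mice, 259.9 and 358 in 2592 and 7_1, and 373, 332, 309 and 382 in proestrus (log2 fold change -0.80, SE 0.13, FDR 9.15e-06). The calcium sensor Syt1 fell by less (-0.50, FDR 0.000197). Of 7 dentate granule cell markers, only C1ql2, a secreted synaptic organizer of mossy fibers, was called, at 7.48, 5.97, 4.09 and 6.27 CPM in the 3-digit mice, 11.5 and 13.4 in 2592 and 7_1, and 15.1, 19.6, 25.4 and 28.2 in proestrus (log2 fold change -1.58, SE 0.25, FDR 5.62e-06). Its 6 diestrus values were all below the proestrus ones.

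Of 5 CA1 markers, Wfs1 (-0.97) and Fibcd1 (-0.47) fell and Mpped1 (0.32) rose. Of 6 CA2 markers, the adhesion protein Amigo2 (-0.82) and the auxiliary subunit Cacng5 (-0.43) fell, and of 4 tested CA3 markers Coch (-1.31) did. With such short lists, and 14.9% of all genes higher and 19.4% lower, these calls are not read as changes of a cell type. Of 11 interneuron markers 1 was higher and 5 lower. Gad1, which makes GABA, rose (0.48, FDR 5.80e-05), whereas Reln, a secreted protein of Cajal-Retzius cells and interneurons (-1.15, FDR 8.57e-05), the vesicular GABA transporter Slc32a1 (-0.81, FDR 0.000788) and the peptide Cort (-0.84, FDR 0.00333) fell. Sst, the somatostatin precursor named in the study's text, fell by 0.39 (FDR 0.0276), a call lost without 12_4, 12_5, 14_2, 532, 643 or 645 (FDR 0.0552 to 0.22). For Reln and Slc32a1 the log2 fold changes of 2592 and 7_1 against proestrus were 0.12 and 0.05.

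Receptors and channels of the synapse were lower where they were called, beside 19.4% of all genes lower and 14.9% higher. Of 15 AMPA receptor subunits and auxiliary subunits, the receptors to which CNIH3 binds, 7 were lower and 0 higher, with a median of -0.29. Shisa7, an auxiliary subunit, was at 31.2, 40.02, 40.5 and 37.2 CPM in the 3-digit mice, 71.7 and 71.04 in 2592 and 7_1, and 84.2, 75.4, 55.6 and 67.9 in proestrus (log2 fold change -0.87, SE 0.15, FDR 2.43e-05). The 3-digit mice were below all other mice shown, and 2592 and 7_1 were inside the proestrus range. The pore subunits Gria2 (-0.53, FDR 0.00107), Gria4 (-0.54, FDR 0.00181) and Gria3 (-0.40, FDR 0.00224) fell as well. Cnih2, the closest relative of Cnih3, fell by 0.50 (FDR 0.00775), with both stages overlapping.

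Of 6 tested NMDA receptor subunits 3 were lower. Grin1, the subunit that every NMDA receptor needs, was at 17.5, 17.8, 18.9 and 18.5 CPM in the 3-digit mice, 25.1 and 46.6 in 2592 and 7_1, and 55.05, 44.9, 38.2 and 38.6 in proestrus (log2 fold change -1.23, SE 0.21, FDR 1.63e-05). Mouse 7_1 lay inside the proestrus range and the 3-digit mice stood far below it. Grin2c (-1.36) and Grin2b (-0.41) fell too, and Grin2d did not pass the test (-0.60, FDR 0.0526). Of 12 GABA-A receptor subunits 6 were lower, among them Gabrg3 (-0.68) and Gabrb1 (-0.39). Of 22 potassium channel genes 14 were lower, with a median log2 fold change of -0.36 over all 22 (-0.44 in the 3-digit mice and 0.01 in 2592 and 7_1). No gene of these 4 lists was higher in diestrus, where 14.9% of all genes were higher and 19.4% lower.

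Of 18 postsynaptic scaffold and CaMKII genes 4 were higher, namely Camk2a, Dlgap2 (0.35), Dlg2 (0.37) and Shank1 (0.32), and 1 was lower. Of 14 kinesin and dynein genes 3 were higher and 0 lower: Kif5a, the dynein intermediate chain Dync1i1 (0.64) and Kif3a (0.23). The medians of these lists, 0.12 and 0.13, were small, and 14.9% of all genes were higher.

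The endoplasmic reticulum chaperones, which fold and check membrane and secreted proteins, fell nearly as a whole, where 19.4% of all genes were lower. Of 14 genes 13 were lower in diestrus and 0 higher, with a median of -0.55 (-0.63 in the 3-digit mice and -0.15 in 2592 and 7_1), and 4 of them were also lower in the 3-digit mice than in the other diestrus mice. Many of these genes share a promoter motif, the endoplasmic reticulum stress element, bound by ATF6 when unfolded proteins build up. It was searched on both strands as CCAAT, 9 bases of any kind and CCACG, in 300 bases around the first listed start of each gene (250 before and 50 after, RefSeq, GRCm38.p6). It was found in 7 of the 12 chaperone genes with a promoter in the table (58.3%), against 35 of 27025 promoters in all (0.13%) and 16 of 11313 of the tested genes (0.141%). Because many genes of this list are known to share the motif, the high share describes the list and is not a result about the stages. Besides the chaperones, Adcy3 and Syvn1 were lower in diestrus and held it, and Hnrnpa3 was higher. The other tested genes that held it, Acacb, Alg12, Pan2, Spats2l, Xlr3a and Xlr3b, were not called. The chaperone genes Dnajb11, Dnajb9, Sdf2l1, Pdia3 and Pdia4 had a promoter without the motif. Only 1 of the 14 chaperone genes was not called, so chaperones without the motif, such as Dnajb11, fell too. The promoters of the 3 chaperones described next are printed 5′ to 3′ on the gene's strand with the motif in capitals, because they are the genes that hold it among those followed mouse by mouse:
Hspa5, chr2:34771840-34772139, plus strand: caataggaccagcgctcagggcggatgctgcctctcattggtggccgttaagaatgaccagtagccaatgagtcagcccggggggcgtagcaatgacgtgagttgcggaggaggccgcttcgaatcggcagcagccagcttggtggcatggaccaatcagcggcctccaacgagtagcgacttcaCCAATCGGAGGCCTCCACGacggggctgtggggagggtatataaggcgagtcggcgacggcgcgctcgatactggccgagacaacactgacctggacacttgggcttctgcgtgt
Calr, chr8:84846882-84847181, minus strand: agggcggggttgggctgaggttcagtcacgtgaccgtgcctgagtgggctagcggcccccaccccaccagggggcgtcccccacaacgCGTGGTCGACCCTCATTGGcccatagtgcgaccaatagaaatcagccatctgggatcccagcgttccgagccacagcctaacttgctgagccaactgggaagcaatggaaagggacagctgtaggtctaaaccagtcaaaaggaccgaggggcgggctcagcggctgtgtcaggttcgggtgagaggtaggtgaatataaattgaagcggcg
Hsp90b1, chr10:86705395-86705694, minus strand: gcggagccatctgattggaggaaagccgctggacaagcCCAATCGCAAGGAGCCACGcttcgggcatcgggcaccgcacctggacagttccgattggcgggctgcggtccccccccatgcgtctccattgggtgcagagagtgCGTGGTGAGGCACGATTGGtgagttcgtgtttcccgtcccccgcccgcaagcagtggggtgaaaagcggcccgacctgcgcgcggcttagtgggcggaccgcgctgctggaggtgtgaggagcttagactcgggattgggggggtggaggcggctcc
Hsp90b1 holds the motif at 2 places and the others at 1. A match is a run of letters and does not show that a factor was bound.

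Calr, calreticulin, the lectin chaperone that also buffers calcium, was at 92.2, 85.9, 103 and 84.1 CPM in the 3-digit mice, 158 and 152 in 2592 and 7_1, and 193, 146, 164 and 207 in proestrus (log2 fold change -0.80, SE 0.12, FDR 2.11e-06). Hsp90b1, the HSP90 of this compartment, was at 78.8, 72.8, 88.9 and 74.6 CPM, then 131 and 112 in 2592 and 7_1, and 134, 106, 132 and 139 in proestrus (log2 fold change -0.56, SE 0.11, FDR 0.000118). Hspa5, which encodes the master chaperone BiP and was outside the naming rule, picked after its value was seen, was at 97.5, 98.4, 109 and 104 CPM, then 158 and 128, and 172, 136, 181 and 134 in proestrus (log2 fold change -0.53, SE 0.13, FDR 0.00155). In all 3 genes the 3-digit mice were below every proestrus mouse and below 2592 and 7_1, and at least 1 of 2592 and 7_1 was in the proestrus range. Dnajb11 (-0.65, FDR 2.68e-05) and the disulfide isomerase Pdia6 (-0.62, FDR 4.33e-05) fell as well. Of 12 tested targets of ATF4, the factor of the amino acid stress response, 1 was higher (Asns, 0.59) and 3 lower, among them Slc3a2 (-0.56) and Atf3 (-1.15). Over all genes, 14.9% were higher and 19.4% lower.

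Large gaps between both kinds of diestrus mice were found in RNAs that stay in the nucleus. Of 8 nuclear long non-coding RNAs, 6 were lower and 1 higher in diestrus, beside 19.4% and 14.9% of all genes. Their median log2 fold change was -1.74. The median was -1.996 in the 3-digit mice and 0.02 in 2592 and 7_1. Malat1, an abundant RNA of nuclear speckles, was at 382, 420.2, 276 and 236 CPM in the 3-digit mice, 1732 and 2109 in 2592 and 7_1, and 2096, 1777, 1717 and 2016 in proestrus (log2 fold change -2.25, SE 0.32, FDR 1.64e-06). Every 3-digit mouse was far below every other mouse shown, and 2592 and 7_1 overlapped proestrus (log2 fold change 0.02 against proestrus, 95% confidence interval -0.80 to 0.83). With edgeR, which gives every library the same weight, the log2 fold change of Malat1 over all 6 diestrus mice was -1.15 with an FDR of 0.0806.

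Meg3, the maternally expressed RNA of the imprinted region on chromosome 12, was at 205, 201, 144 and 168 CPM in the 3-digit mice, 1149 and 1253 in 2592 and 7_1, and 1249, 1427, 914 and 1121 in proestrus (log2 fold change -2.45, SE 0.37, FDR 3.25e-06). Miat, another RNA of nuclear bodies, was at 8.74, 10.4, 7.63 and 7.62 CPM, then 47.6 and 55.05 in 2592 and 7_1, and 48.8, 64.9, 46.9 and 40.4 in proestrus (log2 fold change -2.31, SE 0.35, FDR 4.12e-06). Both repeated the split of Malat1, with no overlap between the 3-digit mice and any other of the 10. Mirg, a microRNA host downstream of Meg3, fell by 1.84 on the log2 scale (FDR 2.00e-05). Rian, which lies between Meg3 and Mirg on the same strand, went the other way, at 147, 158, 156 and 155 CPM in the 3-digit mice, 191 and 145 in 2592 and 7_1, and 119, 134, 71.8 and 91.3 in proestrus (log2 fold change 0.48, SE 0.11, FDR 0.000780). All 6 diestrus mice were above proestrus for Rian. RNA had been purified from the supernatant of a spun detergent lysate, and the part of carried-over nuclear RNA in these values was not tested.

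**Figure D4:**
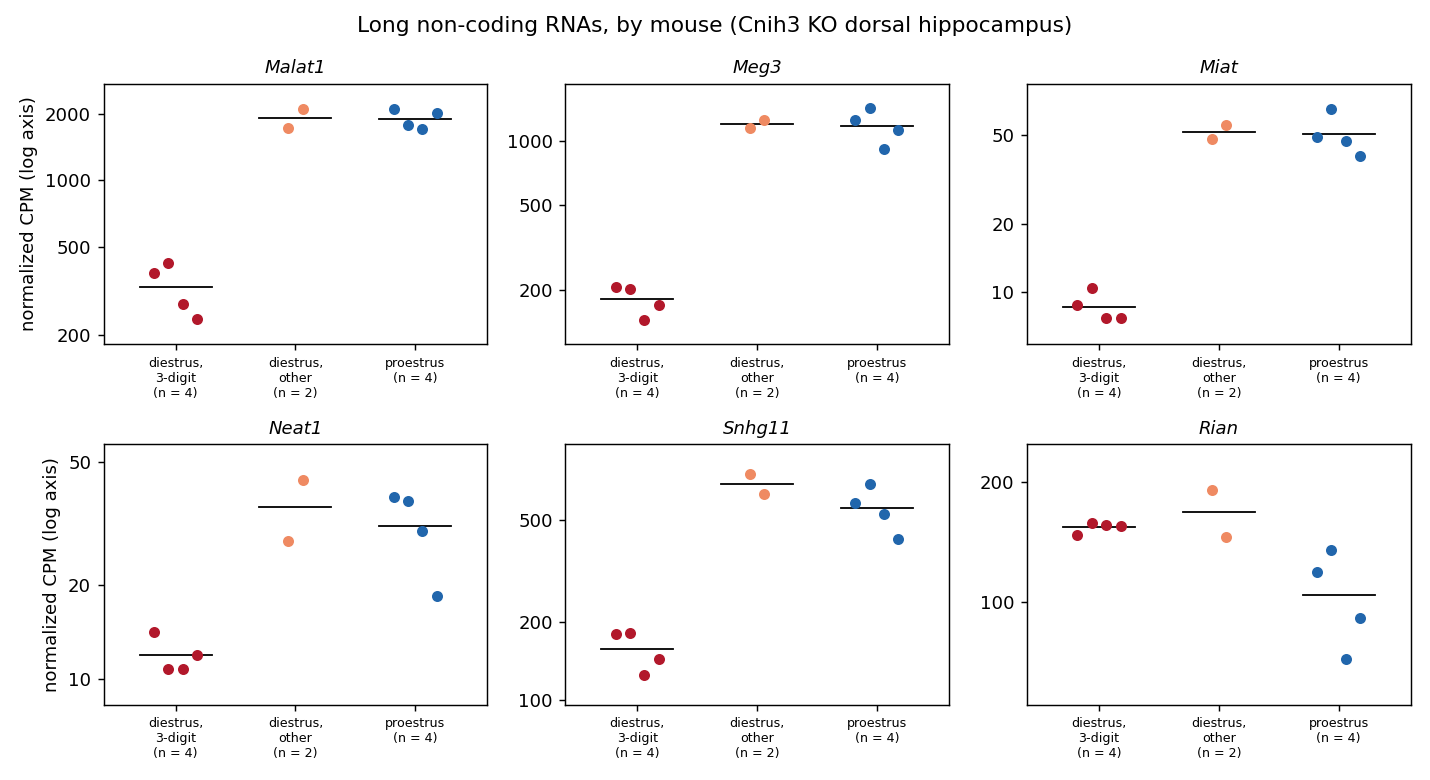
Normalized CPM (log axis) of 6 long non-coding RNAs, with 1 point per mouse and a bar at the mean, for 3-digit KO diestrus mice (n = 4), the other KO diestrus mice (n = 2) and KO proestrus mice (n = 4). Malat1, Meg3, Miat, Neat1 and Snhg11 are lowest in the 3-digit mice with 2592 and 7_1 among or above proestrus, and Rian is higher in all 6 diestrus mice.

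Non-coding classes differed among themselves. Of 306 tested TEC, an annotation class of mostly single-exon transcript models whose status is unsettled, 48.7% were lower and 1.31% higher in diestrus, with a median of -0.85 (-0.97 in the 3-digit mice, 0.04 in 2592 and 7_1). Of the 149 TEC that were lower, 63.8% lay inside a protein-coding gene on the same strand, against 35.3% of the 153 not called. Of 28 sense intronic transcripts 64.3% were lower. Reads inside such a host gene cannot be told apart from unspliced RNA of the host, and the kit does not mark strand. Long intergenic non-coding RNAs (19.1% lower, median -0.06), antisense RNAs (17.4%, -0.10) and processed transcripts (20.3%, -0.10) were close to the 19.4% of all genes that were lower. Processed pseudogenes, copies of spliced messenger RNAs, had 12.2% higher and 0.942% lower, and protein-coding genes 16.1% and 20.4%.

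The 5 genes with the smallest p between the 3-digit and the other diestrus mice included a pair of TEC of this kind. Gm37204, inside Stag1 on chromosome 9, was at 0.214, 0.0969, 0.0831 and 0.0421 CPM in the 3-digit mice, 1.78 and 2.21 in 2592 and 7_1, and 1.55, 1.77, 1.51 and 2.14 in proestrus (log2 difference -4.19, SE 0.59, FDR 6.18e-05 between the kinds of diestrus mice). Gm43843, inside Cttnbp2 on chromosome 6, was at 2.78, 1.38, 1.68 and 1.87 CPM, then 22.4 and 22.1 in 2592 and 7_1, and 23.7, 23.3, 15.4 and 18.8 in proestrus (log2 difference -3.50, SE 0.54, FDR 0.000155). For both, the 3-digit mice were below all other mice shown, and 2592 and 7_1 overlapped proestrus. The others were Malat1 (log2 difference -2.58, SE 0.39, FDR 0.000155), Ftx, a non-coding neighbor of Xist (log2 difference -2.31, SE 0.36, FDR 0.000155), and Tmem165, a Golgi ion transporter (log2 difference -1.55, SE 0.25, FDR 0.000211).

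Of 20 SR proteins and self-regulated splicing factors 10 were lower and 0 higher, with a median of -0.17. Luc7l3, a factor of 5′ splice site choice, was at 110.0, 107, 102 and 105 CPM in the 3-digit mice, 186 and 180.3 in 2592 and 7_1, and 182, 203, 175 and 199 in proestrus (log2 fold change -0.74, SE 0.12, FDR 7.15e-06). Its 3-digit values lay far below all other mice shown. The kinase Clk1 (-0.94) and Tra2a (-0.59) fell too, and 6 of the 20 were lower in the 3-digit mice than in 2592 and 7_1. Of 19 snRNP core proteins 4 were lower, close to the 19.4% of all genes, led by Snrnp70 (-0.80), and Snrpn was higher (0.26). None of 7 snoRNA host genes was called, and of 10 Bex and Tceal genes only Bex2 was (-0.31).

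Hormone-related genes were called in both directions, where 14.9% of all genes were higher and 19.4% lower. Of 8 tested steroid hormone receptors, 2 were higher in diestrus, among them the membrane estrogen receptor Gper1 (log2 fold change 0.90, FDR 0.0175), and the progesterone-binding membrane proteins Pgrmc2 (-0.49, FDR 0.000881) and Pgrmc1 (-0.24, FDR 0.0256) were lower. Gper1 was low, at 1.81, 4.36, 3.28 and 3.77 CPM in the 3-digit mice, 2.76 and 0.913 in 2592 and 7_1, and 1.71, 1.22, 2.81 and 0.868 in proestrus, and the groups overlapped. Esr1, the estrogen receptor alpha, was at 2.91, 1.96, 1.81 and 3.22 CPM, then 2.51 and 3.33, and 3.10, 1.48, 2.35 and 1.74 in proestrus, and did not pass the test (0.24, FDR 0.477). Of 11 tested estrogen target genes, Bcl2 (0.39) and Nrip1 (0.21) were higher and Rara (-0.45) and Cxcl12 (-0.36) lower. The estrogen response element, searched on both strands as GGTCA, 3 bases of any kind and TGACC, was in 18 of 27025 promoters of that table (0.0666%) and in 0 of the 11313 of tested genes, which says only that these letters are absent from those windows. Of 7 tested neurosteroid synthesis genes, Hsd17b4 was higher (0.40).

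Of 12 immediate early genes, whose transcripts follow neuronal activity within minutes, 6 were lower and 0 higher, with a median of -0.66. Dusp1, a phosphatase of MAP kinases, was at 4.16, 3.91, 5.47 and 5.33 CPM in the 3-digit mice, 7.17 and 10.3 in 2592 and 7_1, and 11.2, 12.5, 9.97 and 11.3 in proestrus (log2 fold change -1.19, SE 0.20, FDR 1.26e-05). Fos was at 10.47, 13.2, 14.3 and 12.8 CPM, then 19.5 and 27.1 in 2592 and 7_1, and 25.8, 28.1, 39.7 and 32.1 in proestrus (log2 fold change -1.11, SE 0.33, FDR 0.00642). The 3-digit mice were lowest for both genes, and 1 of 2592 and 7_1 was inside the proestrus range. Junb (-1.26, FDR 0.000758) and Ier2 (-1.70, FDR 0.00164) fell too, and 2592 and 7_1 differed from proestrus by -1.21 and -1.93, neither of them called. Of 17 glucocorticoid-responsive genes 5 were lower, among them Nfkbia (-0.54), Hif3a (-0.83), Arrdc2 (-0.46) and Per1 (-0.39). Of 14 clock genes 2 were higher, Nr1d1 (0.39) and Cry2 (0.28), and 3 lower, among them Dbp (-0.45) and Per1, shares close to the 14.9% and 19.4% of all genes.

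Genes of protein turnover and metabolism were counted beside the 14.9% of all genes higher and 19.4% lower. Of 37 tested proteasome subunits, 12 were higher and 1 lower, led by the base subunits Psmd2 (0.52, FDR 8.69e-05) and Psmd1 (0.50, FDR 8.70e-05), with a median of 0.09. Of 18 cholesterol synthesis genes 5 were higher, among them Hmgcs1 (0.56), Idi1 (0.66), Nsdhl (0.43) and Fdft1 (0.40), and 2 lower. Of 76 nuclear genes of the respiratory chain 7 were higher, a smaller share than over all genes, led by Sdha (0.55) and Atp5a1 (0.44), and of 13 mitochondrial ones mt-Cytb was lower (-0.49, FDR 0.0371). Of 77 tested ribosomal protein genes 74 did not pass the test, with 2 higher (Rpl4, 0.28, and Rpl3, 0.23) and 1 lower (Rps10, -0.67, FDR 0.00248).

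The largest changes among genes whose stages did not overlap were in low transcripts. Lower in diestrus were A930004J17Rik, a TEC inside Srsf4 (-2.71), the zinc transporter Slc39a2 (-2.46), the procollagen enhancer Pcolce2 (-1.84), Mirg and Gm21984 (-1.77). A930004J17Rik was at 0.990, 0.232, 0.312 and 0.358 CPM in the 3-digit mice, 2.76 and 2.83 in 2592 and 7_1, and 3.25, 3.68, 3.65 and 3.47 in proestrus. Slc39a2 was at 0.544, 0.329, 0.353 and 0.421 CPM, then 1.66 and 1.37 in 2592 and 7_1, and 3.03, 2.80, 1.95 and 2.50 in proestrus, so that 2592 and 7_1 lay between the 3-digit and proestrus mice for both genes. Higher in diestrus were the antisense gene Gm26805 (1.53), the sarcomere protein Myom3 (1.48), the pseudogenes Gm5216 (1.16) and Gm2223 (1.16), and the kinase Stk32b (1.09). Myom3 was at 3.61, 3.56, 3.08 and 3.37 CPM in the 3-digit mice, 2.06 and 1.98 in 2592 and 7_1, and 1.10, 0.965, 1.87 and 1.10 in proestrus (log2 fold change 1.48, SE 0.32, FDR 0.000333).

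Of 21 tested genes that the study's text names, 1 was higher in diestrus, the histone deacetylase Hdac4 (log2 fold change 0.44, FDR 0.000198), and 5 were lower. Those were Gal3st1, Cnih2, Sst, the oligodendrocyte receptor Gpr17 (-0.56, FDR 0.0210) and the pituitary hormone Prl. Prl varied most, at 31.5, 1.88, 62.2 and 2.48 CPM in the 3-digit mice, 5.68 and 25.7 in 2592 and 7_1, and 36.7, 70.5, 140.0 and 34.1 in proestrus (log2 fold change -2.57, SE 0.77, FDR 0.00733), with the 3-digit mice spread widely. The call of Prl was lost without 645 (FDR 0.0548), and that of Gpr17 without 12_4, 532, 643 or 645 (FDR 0.0618 to 0.332). The growth hormone gene Gh, the other abundant pituitary transcript, was at 65.9, 2.02, 98.9 and 3.43 CPM, 4.52 and 20.3 and 25.96, 76.7, 96.3 and 42.7 in the same order of mice, so that mice high in Prl were also high in Gh. The study chose these genes on samples that include these mice, so their count is not independent evidence. Over all genes, 14.9% were higher and 19.4% lower. The part of pituitary RNA in the value of Prl was not tested.

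The calls varied with base composition. Protein-coding genes were cut into 5 equal bins by the GC content of their longest transcript, and the share lower in diestrus rose from 13.7% in the lowest bin to 34.5% in the highest, while the share higher fell from 22.1% to 6.05%. The median log2 fold change was 0.03 in the lowest bin and -0.23 in the highest. Within libraries, the gap between the highest and lowest bins was measured against the mean of the 10 KO mice compared. It was 0.0785 to 0.272 on the log2 scale in proestrus, -0.186 to 0.0273 in the 3-digit mice, -0.243 in 2592 and 0.0584 in 7_1. With that reference, only the differences between mice can be read, and not the sign of a value. After centring each library by GC content, an alternative added after the data were seen, 5275 genes were DEGs and Cnih2 was no longer called (log2 fold change -0.13, FDR 0.348), while Gal3st1 moved to -0.64 (FDR 0.00183). By transcript length, 6.9% of the bin with the shortest and 21.8% of the middle bin were higher, and 17.6% and 19.1% lower.

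**Figure D5:**
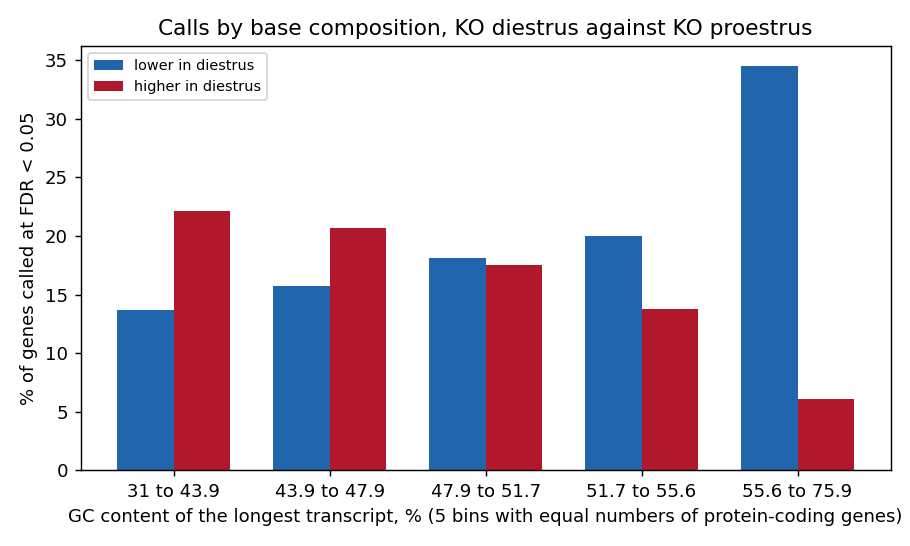
Percent of protein-coding genes called lower (blue) or higher (red) in KO diestrus than in KO proestrus at FDR under 0.05 (y axis, from 0), by 5 bins of the GC content of the longest transcript (x axis, %). The share lower is largest and the share higher smallest in the bin above 55.6% GC, at 34.5% and 6.05%.

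The levels of the other KO groups place these values. For 551 genes (3.41%) the 4 3-digit diestrus mice lay below all 24 other KO mice, and for 182 (1.13%) above. Malat1, at 236 to 420 CPM in the 3-digit mice, was at 649 to 2110 in those 24, Mag at 37.2 to 58.3 against 70 to 193, and Calr at 84.1 to 103 against 124 to 207. Camk2a, at 2530 to 2960 CPM, was at 1270 to 2330 in the others, where the KO metestrus mice had a median of 2040 and proestrus 1520. Mag had medians of 119 CPM in KO metestrus, 116 in KO estrus and 154 in KO males, against 153 in proestrus. No test was run on these levels.

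WT mice give the same contrast without sharing a mouse, 6 in diestrus (3 of them 3-digit) and 5 in proestrus, and had 1562 DEGs (9.66%). The genotypes shared 998 of them, which is 18.0% of the KO list and 63.9% of the WT list, 997 in the same direction. Of the KO DEGs, 90.3% had the same sign in WT, where 73.3% of all genes had. In both genotypes all 3-digit mice were in diestrus. Number series and stage therefore cannot be told apart in this agreement either. The WT 3-digit mice were also low in Malat1 (212 to 373 CPM, against 753 to 1550 in the other WT diestrus mice) and in Mag (32.9 to 48.9, against 109 to 143). A test of the difference between genotypes itself, the interaction, called 0 genes by limma, with 2076 at an unadjusted p under 0.05, and 0 by edgeR (418) and DESeq2 (443). The smallest p there were those of Sycp3, Grin2c, Gm28175, Metrnl and Dmtn, each with an FDR of 0.279. Grin2c had a log2 fold change of -1.36 in KO and 0.34 in WT, and Metrnl, a secreted factor, -0.76 and 0.25.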

How the data were processed

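The authors prepared poly(A)-selected paired-end libraries of dorsal hippocampus from 55 mice, 1 per mouse, starting from the supernatant of a centrifuged NP-40 lysate. Reads were aligned by the authors to GRCm38 with STAR 2.7.9a, and featureCounts 2.0.3 assigned those with a unique place to Ensembl genes. All values here start from the deposited raw counts. The deposited log2 CPM served as a check of normalization, and the values computed here differed from it by at most 4.97e-14 over 16164 genes. Of the columns, 1 matched no listed mouse and was not used.

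Analyses were run in R 4.3.3. The authors' design was followed: a gene needed more than 1 CPM in 10 or more libraries, 5 ribosomal RNA genes were left out, counts were normalized by TMM (edgeR 4.0.16), and 1 mean per group was fitted over all 55 mice by limma 3.58.1 (voomWithQualityWeights, empirical Bayes), with Benjamini-Hochberg FDR under 0.05. This gave 16168 genes. CPM values are TMM-normalized and not corrected for length, so levels are compared between mice and not between genes. KO diestrus was then cut by mouse number, giving 11 groups. Alternatives were voom without quality weights, other size factors and filters, age as a covariate, fewer groups, each mouse left out, edgeR's quasi-likelihood test, DESeq2 1.42.0 and, added later, centring by GC content. The script was tested on simulated data.

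Genes were named by rule: the 8 with the smallest p in each direction, the 5 largest changes in each direction without overlap, up to 4 members with the smallest p per list, genes in the study's text, and the 5 with the smallest p in the interaction and between the kinds of diestrus mice. The members and lists were chosen with earlier results of these data known. Counts over lists cover all tested members, and some members are not reported here by name. Libraries are separate mice. The p-values of genes set a difference between groups against the spread between mice, estimated over all groups in the fit.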

Additional observations from a re-analysis of the deposited data

Results flagged for a closer look

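Outliers were looked for by Dixon's ratio, the gap to the nearest mouse over the group's range, in the 6 KO diestrus and the 4 KO proestrus mice for 56 named genes. It passed the 95% critical value in 3 of 112 cases, where chance passes about 1 in 20. Diestrus mouse 7_1 was high for Ddr1 (ratio 0.714, 32.3 CPM against 11.9 to 15.9 in the other 5) and for Igsf8 (ratio 0.71, 62.4 CPM against 29.4 to 36.6). Proestrus mouse 14_2 was low for Klf4, a transcription factor (ratio 0.89, 0.468 CPM against 1.19 to 1.33).

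The kinds of diestrus mice differed by limma in 1233 genes at FDR under 0.05, and 16 of the named genes were among them. As 3-digit minus other diestrus on the log2 scale, the differences upward were 0.60 for Camk2a (FDR 0.00353), 0.40 for Phactr1 (FDR 0.00427), 0.91 for Kif5a (FDR 0.000629), 0.57 for Gng7 (FDR 0.00855) and 0.46 for Eef2 (FDR 0.0028). Among myelin and membrane genes the differences were -0.70 for Cldn11 (FDR 0.0306), -1.005 for Mag (FDR 0.0265), -0.75 for Lgi3 (FDR 0.00285) and -0.83 for Slc44a1 (FDR 0.00454). Among non-coding RNAs they were -2.63 for A930004J17Rik (FDR 0.00099), -1.73 for Mirg (FDR 0.00762), -4.19 for Gm37204 (FDR 6.18e-05), -2.58 for Malat1, -2.31 for Ftx and -3.50 for Gm43843 (FDR 0.000155 each), and Tmem165 differed by -1.55 (FDR 0.000211). The 3-digit mice were also the younger diestrus mice, and number series and age cannot be told apart among these 6. With age as a covariate over all 55 mice the count was 1218.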

How the results depend on the processing

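Diestrus against proestrus, 5550 DEGs, gave 1627 with equal weights, 3605 without a filter on low counts, 1353 by edgeR and 1848 by DESeq2, and 3225 to 5952 with 1 mouse left out. The 3-digit mice against proestrus, 6248 DEGs, gave 3262, 3359 and 3665 with equal weights, edgeR and DESeq2, and 4092 (without 12_4) to 6309 with 1 mouse left out. Mice 2592 and 7_1 against proestrus, 0 DEGs, gave 28 without a filter, 73 with age as a covariate, 1 by DESeq2 and 0 to 36 with 1 mouse left out. The kinds of diestrus mice, 1233 DEGs apart, gave 497 with equal weights, 1980 without a filter, 511 by edgeR, 593 by DESeq2 and 719 to 1413 with 1 mouse left out. The interaction had 0 DEGs in every alternative run. The cause of these shifts was not tested. No paired analysis was possible because the mice of the stages share no replicate number.

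Signs changed in 22 repeats of the named genes, all for genes that did not pass the test, and stayed in the others. On the log2 scale, Hsp90aa1 was at -0.0028 with equal weights, -0.012 by edgeR, -0.00064 by DESeq2, -0.011 after GC centring and -0.0044 to 0.069 with 1 mouse left out. Sncg was at -0.016 with equal weights, -0.052 by edgeR, -0.040 by DESeq2 and -0.15 to 0.17 with 1 mouse left out. By edgeR, Klf4 was at 0.038 and Avpr1b at 0.013. With 1 mouse left out, Rela ran from -0.052 to 0.093, Esr1 from -0.033 to 0.45, Plin4 from -1.19 to 0.33, Otx2 from -1.05 to 0.61 and Depp1 from -0.22 to 0.54. In 43 repeats a called gene lost its call with the same sign: Malat1 (edgeR FDR 0.0806), Gm37204, Gm43843, Ftx, A930004J17Rik, Gm2223, Gm28175, Cnih2, Prl, Sst and Gpr17. With 2 mice whose levels differ from the other 4 diestrus mice, fold changes over all 6 depend on the weight each mouse is given.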

Other observations

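The 7 mice with 3-digit numbers, 4 KO and 3 WT, lay below all 48 other mice of the series for 229 genes (1.42%) and above them for 33 (0.204%). Among the named genes below all others were Meg3, Miat, Neat1, Ftx, Mag, Mog, Calr and Grin1. Among those above all others were Aldh1l1, Aldoc, Ndrg2, Phactr1, Qars and Myom3. These mice are of both genotypes and 1 stage, and no test was run on this pattern.

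Ttr, the thyroxine carrier that the choroid plexus makes in large amounts, was at 636, 394, 265 and 112 CPM in the 3-digit diestrus mice, 29.0 and 8.16 in 2592 and 7_1, and 2098, 177, 41.9 and 42.3 in proestrus mice 12_4, 12_5, 14_1 and 14_2. Mouse 12_4 stood above all others. Enpp2, also abundant in choroid plexus, was at 617 CPM in 12_4 and at 77.9 to 152 in the other 9 mice.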
